A study of Mus musculus with 208 samples.

Results

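The 7 genes described here, Csf1r, Cx3cr1, P2ry12, C1qa, C1qb, Tmem119 and Ctss, are transcripts by which microglia are commonly recognised, and they were measured in nuclei that had been sorted for the neuronal protein NeuN. They were chosen by symbol and are 7 of the 46403 genes listed in each of 4 count tables, 1 per brain region. The study asked how exposure to morphine around birth alters the adult response of brain regions to bacterial lipopolysaccharide (LPS), the cell wall component of Gram-negative bacteria that starts inflammation. RNA was read from 71 wild-type C57BL/6NTac mice of both sexes, counted by their label numbers, with each library from about 5000 NeuN+ nuclei of 1 animal and 1 region: 51 of hypothalamus, 55 of hippocampus, 48 of prefrontal cortex (PFC) and 54 of striatum. The 4 conditions were SAL-SAL (saline around birth, saline in adulthood), MOR-SAL (morphine, then saline), SAL-LPS (saline, then LPS) and MOR-LPS (morphine, then LPS). Morphine reached the fetus through a pump in the dam and the pup by injections of 10 mg/kg from postnatal day 1 to 14, saline groups got saline by both routes, every pup was reared by a drug-naive foster dam, and brains were taken 2 h after the adult injection. Groups held 8 to 18 libraries. Each label number has 2 parts, as in 12-0, and animals that share the first part are called a numbered set here. There were 18 such sets, and the labels do not say whether a set is a litter, a cage or only a numbering; the methods of the study count more litters than there are sets. Each set had a single perinatal exposure, so that exposure and set cannot be told apart, whereas both saline and LPS were given within 17 of the 18 sets. Since dams were exposed, exposure and litter cannot be told apart either.

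Microglia are the resident macrophages of the brain, arise outside the neural lineage and do not make NeuN. They survive through Csf1r, the receptor kinase for the cytokines Csf1 and Il34, meet neurons through Cx3cr1, the receptor for neuronal fractalkine, and sense extracellular nucleotides through P2ry12. Tmem119 is a membrane protein widely used as a marker of resident microglia. C1qa and C1qb encode chains of C1q, the recognition unit that starts the classical complement cascade, and Ctss encodes cathepsin S, a lysosomal protease of antigen-presenting cells. Microglia and other macrophages respond to LPS within hours, and P2ry12 and Tmem119 are known as genes of the resting state.

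The promoters of the members bear on what they share, because they are macrophage genes and the macrophage regulator PU.1 (Spi1) binds sites built around GAGGAA. RefSeq promoters (GRCm38.p6, 250 bases before to 50 bases after the start, written in the direction of transcription) were matched for 4 of the 7 members by symbol. C1qb (chr4:136886151-136886450, minus strand) and Ctss (chr3:95526536-95526835, plus strand) are shown since both were called for LPS in the hypothalamus, and Cx3cr1 (chr9:120068247-120068546, minus strand), which was not called for LPS, is shown beside them. Capitals mark GAGGAA, or TTCCTC where it is read from the opposite strand.
C1qb: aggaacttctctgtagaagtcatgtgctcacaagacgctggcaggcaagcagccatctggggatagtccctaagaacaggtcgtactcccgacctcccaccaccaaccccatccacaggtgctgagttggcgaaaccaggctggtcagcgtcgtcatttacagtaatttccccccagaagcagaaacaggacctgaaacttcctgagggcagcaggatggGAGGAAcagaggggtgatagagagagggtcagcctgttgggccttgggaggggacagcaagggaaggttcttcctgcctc
Ctss: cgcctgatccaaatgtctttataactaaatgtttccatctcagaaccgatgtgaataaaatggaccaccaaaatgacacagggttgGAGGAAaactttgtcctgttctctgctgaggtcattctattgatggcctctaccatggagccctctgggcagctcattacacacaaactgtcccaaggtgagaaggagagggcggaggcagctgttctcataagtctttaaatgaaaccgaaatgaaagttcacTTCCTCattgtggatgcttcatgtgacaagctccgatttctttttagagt
Cx3cr1: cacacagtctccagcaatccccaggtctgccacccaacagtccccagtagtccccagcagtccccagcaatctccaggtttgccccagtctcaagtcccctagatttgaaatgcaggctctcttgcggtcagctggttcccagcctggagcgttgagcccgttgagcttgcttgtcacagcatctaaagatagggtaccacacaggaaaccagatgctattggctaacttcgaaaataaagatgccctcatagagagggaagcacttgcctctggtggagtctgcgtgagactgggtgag
The C1qb window held GAGGAA 1 time and the Ctss window 2 times, 1 on each strand. Cx3cr1 and P2ry12 held none, and of 32851 mouse promoters of this length searched on both strands 28.3% held it. The AP-1 motif TGANTCA, present in 7.81% of all promoters, and a kappaB motif, present in 4.51%, were found in none of the 4. These matches are descriptions of the letters in the windows.

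Positions below are those of mm10 in the GENCODE M21 annotation. C1qb (chr4:136880129-136886187) and C1qa (chr4:136895917-136898803) are neighbours on the minus strand and overlap no other annotated gene, and neither does Tmem119 (chr5:113793729-113800516, minus strand). Ctss lies at chr3:95526786-95556403 on the plus strand and shares no exon bases with another gene. Cx3cr1 (chr9:119901616-120069879, minus strand) spans several other genes and shares 78 exon bases with 1 of them, Gm33858, and Csf1r, on chromosome 18, shares 873 of its 5774 exon bases with Hmgxb3, both on the opposite strand. P2ry12 (chr3:59216272-59262871, minus strand) lies wholly within Med12l, a neuronally transcribed Mediator gene of the plus strand, and shares 9 exon bases with it. Reads of overlapping genes cannot be told apart here, since the sources used do not state that counting used strand.

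P2ry12 was listed at 0 in all 157 libraries of hippocampus, PFC and striatum and had reads in 48 of 51 hypothalamic libraries. Gpr171, P2ry14 and P2ry13, which also lie inside Med12l, were likewise listed at 0 in the same 3 regions, where Med12l itself had reads in every library. Of 1480 genes whose median reached 5 CPM (counts scaled to a common library total) in the hypothalamus that had no read in any hippocampal, PFC or striatal library, 1104 had a position and 1058 of these (95.8%) lay wholly within another gene, against 55 of 10626 (0.518%) of genes counted elsewhere too. The tables thus differ in which nested genes hold counts. P2ry12 was compared only within the hypothalamus, and for nested or overlapping genes a difference in level between the hypothalamus and another region cannot be told apart from a difference in counting. In the hypothalamus P2ry12 followed its host gene (Pearson's r = 0.379 with Med12l over 51 libraries, Spearman's rho = 0.297, permutation p = 0.00583, adjusted over 3 relations 0.00875, r = 0.430 without the 2 farthest libraries) and P2ry14 (r = 0.421, rho = 0.308, permutation p = 0.00101), while P2ry13, another nested neighbour, did not pass (r = 0.183, rho = 0.186, permutation p = 0.248, adjusted 0.248). With each of the other 6 members r ran from -0.04 to 0.32.

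Total counts lay between 7673 and 35077048 per library of hypothalamus, 227025 and 24071488 of hippocampus, 3056648 and 21988203 of PFC, and 5954700 and 92945090 of striatum. At the median depth a gene with no read is limited to 0.541, 0.327, 0.310 and 0.276 CPM in these regions by the 3-count floor, which covers counting error only. A few libraries (3 of hypothalamus, 2 of hippocampus and 3 of PFC) had less than 0.5 of their region's median depth, among them 2 hypothalamic libraries of 7673 and 160755 counts in which no member had a read. Neuronal markers were abundant, and 8 of them together had a median of 2528 CPM in the hypothalamus. Elsewhere Nefl and Tubb3 of this list were at 0 in every library, and the other 6 had medians of 4714 to 5829 CPM. Markers of other cells were present as well. The summed level of 12 oligodendrocyte genes had a median of 367 to 445 CPM by region and reached 7382 CPM in 1 hypothalamic library, and 10 astrocyte genes had medians of 211 to 399 CPM. Like P2ry12, Gfap of the astrocyte list, Gpr17 of the oligodendrocyte precursors, Gpr34 and P2ry13 of the other microglial genes, Ccl2 and Cxcl10 of the acute response and Irf8 of the partners were at 0 in every library outside the hypothalamus, so sums of these lists cover fewer genes there. In such bulk libraries, fewer nuclei of a type and less RNA per nucleus cannot be told apart.

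The members were low but detected in most libraries. Csf1r had reads in 47 of 51 libraries of hypothalamus, 52 of 55 of hippocampus, 40 of 48 of PFC and 54 of 54 of striatum, and Cx3cr1 in 43, 53, 45 and 54. C1qb was detected in 35, 52, 43 and 52 libraries, C1qa in 33, 41, 35 and 48, Ctss in 37, 48, 31 and 51, and Tmem119 in 30, 37, 32 and 49. All 7 members had a read in 17 hypothalamic libraries, and all 6 that could be counted elsewhere had one in 27 hippocampal, 21 PFC and 42 striatal libraries. The summed level of the members (CPM scaled by the TMM method, the scale of every level below) was, for the 6 members counted in every region, 28.2 ± 36.1 CPM (SD, n = 51) in the hypothalamus, 24.8 ± 39.2 (n = 55) in hippocampus, 38.2 ± 44.7 (n = 48) in PFC and 29.4 ± 40.0 (n = 54) in striatum. Medians were lower, at 15.8, 15.9, 20.6 and 12.4 CPM, because a few libraries were far above the rest, up to 260 CPM. With P2ry12 the hypothalamic sum was 34.7 ± 35.8 CPM (median 21.4).

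Set per kilobase of exon, which allows genes to be compared, C1qb had the highest mean level of the members in each region when its 4 conditions were pooled (3.74 CPM per kb in the hypothalamus, 4.52 in hippocampus, 8.13 in PFC and 4.70 in striatum). Tmem119 had the lowest pooled mean of those counted, at 0.650 to 1.27 CPM per kb. C1qa, Ctss, Csf1r and Cx3cr1 lay between, C1qa at 1.91 to 3.20 and Csf1r at 1.14 to 1.70 CPM per kb. The order did not hold in every condition. P2ry12 led in hypothalamic SAL-SAL (2.76 CPM per kb, with Csf1r at 2.25, C1qa at 1.15 and C1qb at 1.11) and MOR-SAL (3.65, with C1qb at 0.719), C1qa led in hypothalamic SAL-LPS (3.66 against 3.57 for C1qb), and Cx3cr1 led in striatal MOR-SAL (1.03 against 0.869). Tmem119 was not the lowest in hypothalamic and striatal MOR-SAL and hippocampal SAL-SAL, where C1qa was (0.371, 0.116 and 0.400 CPM per kb), or in PFC MOR-SAL, where Csf1r was (0.459). For the pooled means the spread over libraries of a region was larger than the mean, except for P2ry12 in the hypothalamus (6.502 ± 4.16 CPM), so that the order describes means and not single libraries.

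**Figure D1:**
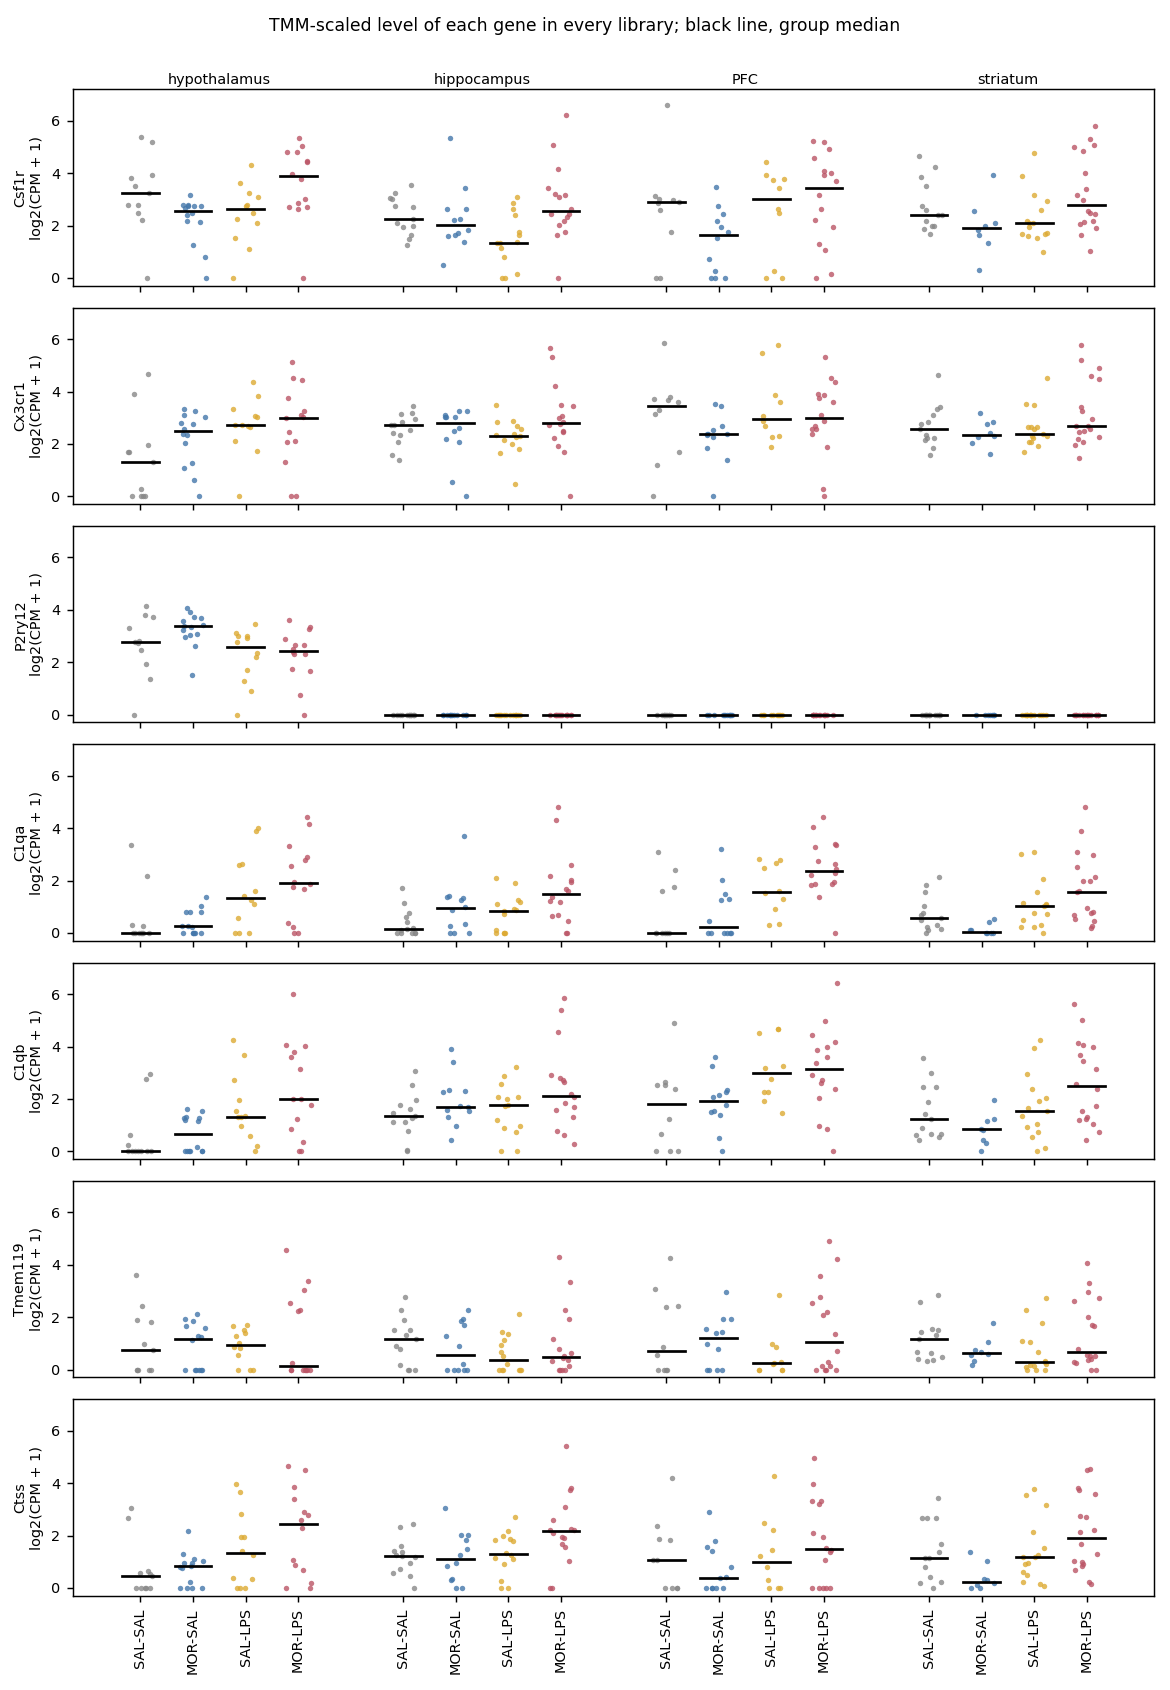
Level of each of the 7 genes, as log2(TMM-scaled CPM + 1), in every library (1 point each) by region and condition; the black line is the group median. P2ry12 is at 0 outside the hypothalamus, most groups overlap, and single libraries reach 96.6 CPM for Csf1r and 83.8 CPM for C1qb in the PFC.

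In the hypothalamus C1qa, C1qb and Ctss were higher after LPS, whereas the receptors and Tmem119 did not pass the test. C1qa ranged from 0 to 9.19 CPM (median 0) in 11 SAL-SAL libraries and from 0 to 1.56 (median 0.193) in 14 MOR-SAL libraries. After LPS it ranged from 0 to 15.0 (median 1.52) in 12 SAL-LPS libraries and from 0 to 20.6 (median 2.74) in 14 MOR-LPS libraries. The groups overlapped at 0, and the highest values were in LPS libraries. C1qb behaved alike, with medians of 0 (range 0 to 6.79) in SAL-SAL, 0.688 (0 to 2.06) in MOR-SAL, 1.49 (0 to 18.3) in SAL-LPS and 3.03 (0 to 63.1) in MOR-LPS. For Ctss the medians were 0.383 (0 to 7.28), 0.767 (0 to 3.54), 1.54 (0 to 14.5) and 4.45 (0 to 24.1) in the same order. Averaged over the exposures, LPS raised C1qa 5.61-fold (log2 fold change 2.49 ± 0.64 SE, adjusted p = 0.0131), C1qb 5.91-fold (2.56 ± 0.58, adjusted p = 0.00722) and Ctss 5.04-fold (2.33 ± 0.60, adjusted p = 0.0135). All p-values of this kind are from edgeR's quasi-likelihood test over all genes of a region with sex in the model and Benjamini-Hochberg adjustment, and they measure spread between animals taken as independent. Called genes were 4.43% of the 28859 tested, and 3.01% were called higher. Within a region, 10.1% to 20.5% of all genes had an unadjusted p under 0.05 by contrast, so such values were common.

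The remaining hypothalamic members had smaller changes. P2ry12 had medians of 5.75 CPM in SAL-SAL, 9.37 in MOR-SAL, 4.97 in SAL-LPS and 4.44 in MOR-LPS, and its log2 fold change of -0.88 ± 0.29 missed the threshold (p = 0.00346, adjusted p = 0.0638), whereas DESeq2 called it lower. Cx3cr1 had medians of 1.46, 4.62, 5.57 and 7.03 CPM in that order of conditions and a log2 fold change of 0.84 ± 0.41 (adjusted p = 0.270). Csf1r gave 0.33 ± 0.33 (adjusted p = 0.716), since its medians were 8.45 CPM in SAL-SAL, 4.94 in MOR-SAL, 5.18 in SAL-LPS and 13.8 in MOR-LPS and the exposures moved in opposite directions. Tmem119, with medians of 0.674, 1.28, 0.925 and 0.0892 CPM, gave -0.11 ± 0.71 (adjusted p = 1), a direction that turned positive under several other settings.

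With the numbered set as a block, which compares animals of the same set, only C1qb of the 3 stayed under the threshold (3.16 ± 0.79, adjusted p = 0.0344). C1qa then had 3.48 ± 0.94 (adjusted p = 0.0584) and Ctss 2.03 ± 0.75 (adjusted p = 0.264), and 0.243% of all genes were called. Leaving out sets one at a time, C1qb and Ctss were called each time and C1qa was lost without set 1 (adjusted p = 0.0526). With a correlation within sets, in limma-voom, C1qb alone was called, and limma on log2(CPM + pseudocount) called none of the 3 with pseudocounts of 1 and 0.1. The sexes taken alone called 0 members in females and C1qa in males (3.64 ± 1.06, adjusted p = 0.0495). In females the estimates of 2.87, 2.44 and 1.77 for C1qa, C1qb and Ctss had unadjusted p of 0.00132, 0.00194 and 0.0287.

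In the striatum C1qa was the member called. It ranged from 0 to 3.36 CPM (median 0.472) in 13 SAL-SAL libraries, from 0 to 0.464 (median 0.0335) in 8 MOR-SAL libraries, from 0 to 7.53 (median 1.03) in 15 SAL-LPS libraries and from 0.137 to 27.1 (median 1.98) in 18 MOR-LPS libraries. Libraries of all conditions overlapped, with a read in 4 of 8 MOR-SAL libraries, 12 of 13 SAL-SAL, 14 of 15 SAL-LPS and 18 of 18 MOR-LPS libraries. LPS raised it 7.30-fold (log2 2.87 ± 0.66, adjusted p = 0.0140), where 1.65% of 23426 genes were called and 1.14% called higher. With the set as a block it had 2.56 ± 0.66 (adjusted p = 0.0565, 0.41% of genes called), and without set 15 it was lost as well (adjusted p = 0.0606), as it was in males and under limma with a pseudocount of 1. C1qb (1.77 ± 0.53, adjusted p = 0.0594) and Ctss (1.83 ± 0.61, adjusted p = 0.0906) had positive estimates that missed the threshold in edgeR and passed it in DESeq2. C1qb medians were 1.32 CPM in SAL-SAL, 0.786 in MOR-SAL, 1.89 in SAL-LPS and 4.60 in MOR-LPS, and those of Ctss were 1.23, 0.186, 1.27 and 2.77. Csf1r (0.41 ± 0.39), Cx3cr1 (0.45 ± 0.29) and Tmem119 (0.28 ± 0.59) had adjusted p from 0.484 to 0.892. Their medians in the 4 conditions, in the same order, were 4.34, 2.76, 3.30 and 5.90 CPM for Csf1r, 4.96, 4.12, 4.25 and 5.35 CPM for Cx3cr1, and 1.27, 0.549, 0.227 and 0.603 CPM for Tmem119.

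No member was called for LPS in the hippocampus or PFC by edgeR, nor by DESeq2 or limma on log2(CPM + pseudocount). In the hippocampus log2 fold changes were 0.87 ± 0.61 for C1qa, 0.80 ± 0.48 for C1qb, 1.03 ± 0.45 for Ctss (p = 0.0243, adjusted p = 0.198), 0.18 ± 0.42 for Csf1r, 0.25 ± 0.32 for Cx3cr1 and -0.11 ± 0.66 for Tmem119, where 3.82% of 22076 genes were called and adjusted p of the members was at least 0.198. Ctss was the single member there with an unadjusted p under 0.05. Hippocampal medians, in the order of conditions used above, were 0.119, 0.920, 0.793 and 1.78 CPM for C1qa, 1.53, 2.25, 2.38 and 3.36 CPM for C1qb, and 1.33, 1.18, 1.46 and 3.46 CPM for Ctss. For Csf1r they were 3.73, 3.12, 1.55 and 4.87 CPM, for Cx3cr1 5.52, 6.07, 3.97 and 5.98 CPM, and for Tmem119 1.23, 0.509, 0.294 and 0.393 CPM. All hippocampal groups overlapped for each member.

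In the PFC the estimates were 1.71 ± 0.72 for C1qa (p = 0.0198, adjusted p = 0.254) and 1.58 ± 0.55 for C1qb (p = 0.00529, adjusted p = 0.129), and 1.77% of 21729 genes were called. Ctss had 1.502 ± 0.86, Csf1r 0.91 ± 0.61, Cx3cr1 0.75 ± 0.48 and Tmem119 -0.24 ± 0.80, with adjusted p from 0.509 to 1. C1qa and C1qb were the 2 members there with an unadjusted p under 0.05, and C1qa was called when the set was given as a correlation in limma-voom. One SAL-SAL library, of animal 9-4, stood apart, and without it C1qb was called for LPS (2.06 ± 0.55, adjusted p = 0.0336, with 2.03% of genes called), while Csf1r (1.51, p = 0.0159), Cx3cr1 (1.09, p = 0.0245) and Ctss (1.78, p = 0.0394) also had an unadjusted p under 0.05, which makes 5 of 6 members in place of 2. With every library kept, 12.3% of all genes had an unadjusted p under 0.05 in this contrast. C1qb medians were 2.74 CPM in SAL-SAL, 2.85 in MOR-SAL, 6.92 in SAL-LPS and 7.94 in MOR-LPS. Every SAL-LPS library had a read of both C1qa and C1qb. C1qa medians were 0, 0.186, 1.97 and 4.19 CPM and Ctss medians 1.09, 0.307, 1.02 and 1.80 CPM. Csf1r medians were 6.43, 2.15, 7.47 and 9.89 CPM, Cx3cr1 medians 9.98, 4.15, 6.85 and 7.01 CPM, and Tmem119 medians 0.656, 1.31, 0.183 and 1.11 CPM. Whether the LPS response differed between regions was not tested, so a call in the hypothalamus beside none in the PFC does not show a difference between them.

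**Figure D2:**
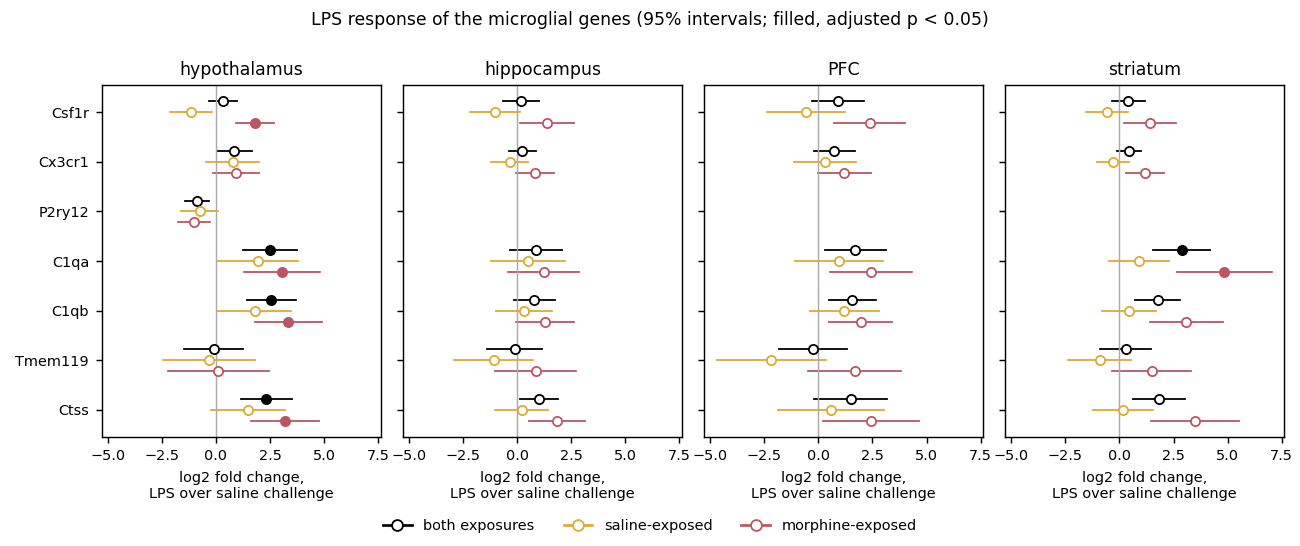
Log2 fold change of each gene after LPS against saline in 4 regions, over both exposures (black), in saline-exposed (yellow) and in morphine-exposed animals (red); lines are 95% intervals and filled points have an adjusted p under 0.05 in edgeR. Filled points are at C1qa, C1qb and Ctss in the hypothalamus (both exposures), at these and Csf1r there in morphine-exposed animals, and at C1qa in the striatum.

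Split by exposure, the calls were in morphine-exposed animals. MOR-LPS against MOR-SAL called 4 hypothalamic members higher: C1qa by 3.04 ± 0.89 (8.25-fold, adjusted p = 0.0264), C1qb by 3.34 ± 0.79 (10.1-fold, adjusted p = 0.00723), Ctss by 3.19 ± 0.81 (9.12-fold, adjusted p = 0.0117) and Csf1r by 1.82 ± 0.45 (3.54-fold, adjusted p = 0.00971) on the log2 scale. P2ry12 had -1.01 ± 0.38 (p = 0.00946, adjusted p = 0.0894). Of all genes 6.27% were called there, and 4.1% were called higher. Csf1r ranged from 0 to 7.98 CPM in MOR-SAL and from 0 to 39.5 CPM in MOR-LPS, so that the upper part of MOR-LPS lay above every MOR-SAL library. With the set as a block C1qa (4.04, adjusted p = 0.0428) and C1qb (3.69, adjusted p = 0.0286) were called and Csf1r (1.81, adjusted p = 0.0653) and Ctss (2.46, adjusted p = 0.183) were not, with 1.12% of genes called. Without set 16, C1qb had an adjusted p of 0.0501 and Csf1r of 0.0558. C1qa was lost without set 6, 14, 15 or 16, with adjusted p up to 0.115, and Ctss was lost without set 14 (0.0659). With a correlation within sets C1qb alone was called. In males none of these 4 was called, and the call made there was of another member. Limma called C1qa and C1qb with a pseudocount of 1 and no member with 0.1.

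In the striatum of morphine-exposed animals C1qa was 28.6-fold higher after LPS (4.84 ± 1.12, adjusted p = 0.0198), with 1.39% of genes called and 0.845% called higher. Ctss (3.48 ± 1.03, adjusted p = 0.0654) and C1qb (3.10 ± 0.87, adjusted p = 0.0506) came near the threshold, and Csf1r (1.40 ± 0.62) and Cx3cr1 (1.18 ± 0.45) had unadjusted p of 0.0269 and 0.0110. The size of the C1qa change rests on a low MOR-SAL group, where C1qa had 9 counts over 8 libraries. Under the set block C1qa had 3.93 ± 1.08 (adjusted p = 0.110, 0.128% of genes called), and the call was also lost without set 15 or 16 and in males. MOR-LPS against MOR-SAL called no member in the hippocampus (0.467% of genes called), where all 6 estimates were positive, from 0.83 to 1.85, and Ctss (p = 0.00620) and Csf1r (p = 0.0348) had unadjusted p under 0.05. DESeq2 and limma called 0 members there as well. The contrast called none in the PFC by any of these tools (0.0184% of genes by edgeR), where estimates ran from 1.20 to 2.45 and C1qa (p = 0.0138), C1qb (p = 0.00962), Csf1r (p = 0.00587) and Ctss (p = 0.0350) had an unadjusted p under 0.05 and adjusted p from 0.140 to 0.320.

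SAL-LPS against SAL-SAL called no member in any region, where 0.246% of genes were called in the hypothalamus, 2.55% in hippocampus, 0% in PFC and 0.0128% in striatum. In the hypothalamus 3 members had an unadjusted p under 0.05, beside 14.0% of all genes: C1qa (1.93 ± 0.94), C1qb (1.79 ± 0.86) and, downwards, Csf1r (-1.16 ± 0.49). None did in the other 3 regions, and DESeq2 and limma called 0 members in all 4 regions. The averaged contrast shares its libraries with both of these comparisons.

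Csf1r was the member whose LPS response differed between exposures. In the hypothalamus its level was 0 to 40.5 CPM (median 8.45) in SAL-SAL and 0 to 18.9 (median 5.18) in SAL-LPS, but 0 to 7.98 (median 4.94) in MOR-SAL and 0 to 39.5 (median 13.8) in MOR-LPS. The interaction of exposure and LPS was 2.98 ± 0.66 on the log2 scale (95% interval 1.68 to 4.28, adjusted p = 0.00706), where 3.8% of genes were called and 2.2% were called upwards. It was called without each set in turn, with adjusted p from 0.00448 to 0.0202, but the call was lost with a correlation within sets (adjusted p = 0.187), in males (0.226) and under limma with pseudocounts of 1 (0.221) and 0.1 (0.504). Under the set block it was lost too, at 2.80 ± 0.75 (p = 0.000313, adjusted p = 0.101), with 0.128% of genes called. The other 6 hypothalamic members had interactions from -0.27 to 1.71 with adjusted p of at least 0.521.

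Elsewhere no interaction was called, with 2.35% of genes called in the hippocampus, 1.78% in PFC and 0.00854% in striatum. Csf1r had estimates of the same sign there, 2.39 ± 0.88 in the hippocampus (p = 0.00824, adjusted p = 0.147), 2.94 ± 1.22 in the PFC (p = 0.0183, but 1.63 ± 1.19 and p = 0.175 without animal 9-4) and 1.99 ± 0.78 in the striatum (p = 0.0131). In the striatum all 6 members had positive interactions from 1.47 to 3.94 and unadjusted p under 0.05, beside 14.8% of all genes. Their adjusted p was at least 0.109, and DESeq2 called 1 of them. The 6 varied together there (median r of their pairs 0.873), so they are not separate observations. Tmem119 in the PFC had 3.87 ± 1.70 (p = 0.0254, adjusted p = 0.306), and 3.03 ± 1.75 (p = 0.0855) without animal 9-4.

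Without LPS, morphine exposure called no member, and the share of all genes called in MOR-SAL against SAL-SAL was 1.44% in the hypothalamus and 0% in the hippocampus, the PFC and the striatum. Hypothalamic Csf1r was nearest, at -1.56 ± 0.47 (0.338-fold, p = 0.00127, adjusted p = 0.0611), and it was called by DESeq2, without a sex term and without the low-depth libraries. Striatal C1qa (-2.81 ± 1.09) and Ctss (-2.43 ± 1.01) and PFC Csf1r (-2.20 ± 0.89) and Cx3cr1 (-1.45 ± 0.68) also had negative estimates with unadjusted p from 0.0106 to 0.0374. The PFC estimates rest on the SAL-SAL library of animal 9-4, which had 96.6 CPM of Csf1r (next 7.77) and 57.3 of Cx3cr1 (next 12.9). Without it the SAL-SAL mean of Csf1r was 4.67 CPM in place of 13.9 and the estimates were -0.92 ± 0.87 for Csf1r (p = 0.295) and -0.68 ± 0.68 for Cx3cr1 (p = 0.326). After LPS, Csf1r was called higher by edgeR in the hippocampus of morphine-exposed than of saline-exposed animals. It ranged from 0 to 7.60 CPM (median 1.55) in 14 SAL-LPS libraries and from 0 to 73.6 CPM (median 4.87) in 16 MOR-LPS libraries, 5.21-fold higher in the fit (2.38 ± 0.62, adjusted p = 0.0313), where 2.73% of genes were called and 1.72% called higher. The call was lost without set 3, 4, 10 or 15, with adjusted p up to 0.0731, and also in males (0.31, adjusted p = 0.881), with filterByExpr (0.153), with a correlation within sets (0.0722) and under limma with either pseudocount (0.122 and 0.137). Ctss (1.75 ± 0.60), Cx3cr1 (1.21 ± 0.43), C1qa (2.08 ± 0.81) and C1qb (1.69 ± 0.67) also had positive estimates there, with unadjusted p from 0.00506 to 0.0141 and adjusted p from 0.0894 to 0.142. MOR-LPS against SAL-LPS called no member in the hypothalamus (1.03% of genes), PFC (0.0046%) or striatum (0%), where Csf1r had 1.42 ± 0.48, 0.74 ± 0.83 and 1.27 ± 0.47. Unadjusted p under 0.05 was found for Csf1r in the hypothalamus (p = 0.00391), Tmem119 in the PFC (2.83 ± 1.29, p = 0.0312), and Csf1r (p = 0.00834), Cx3cr1 (0.95 ± 0.35, p = 0.00856) and C1qb (1.21 ± 0.60, p = 0.0477) in the striatum.

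Cx3cr1, P2ry12 and C1qb were called higher in females than in males in the hypothalamus, where estimates were positive for all 7 members. Medians were 7.50 CPM (range 0 to 34.1) in 26 female and 2.84 CPM (0 to 8.49) in 25 male libraries for Cx3cr1, 8.79 (0 to 16.8) against 5.07 (0 to 11.7) for P2ry12, and 1.88 (0 to 63.1) against 0.189 (0 to 11.0) for C1qb. Each range began at 0 in both sexes, and the highest libraries were female. The log2 differences were 1.66 ± 0.42 for Cx3cr1 (adjusted p = 0.0159), 0.98 ± 0.29 for P2ry12 (adjusted p = 0.0412) and 2.48 ± 0.59 for C1qb (adjusted p = 0.00949), where 3.45% of genes were called and 2.29% called higher in females. Ctss (1.64 ± 0.59), C1qa (1.62 ± 0.68), Csf1r (0.80 ± 0.33) and Tmem119 (1.85 ± 0.93) had unadjusted p from 0.00656 to 0.0456. In the striatum Cx3cr1 alone was called (1.04 ± 0.28, adjusted p = 0.0493, with 0.841% of genes called and 0.576% higher). All 6 striatal estimates were positive, and Csf1r (0.85 ± 0.38) had an unadjusted p of 0.0269 in edgeR. The hippocampus (2.51% of genes) and PFC (0.709%) had no called member, by edgeR or DESeq2, and Ctss in the hippocampus (1.25 ± 0.45) was the 1 with an unadjusted p under 0.05. This comparison was added after the data were seen. With a correlation within sets, in limma-voom, the hypothalamic count of 3 became 1 and the striatal count of 1 became 0, and limma with either pseudocount called no member in either region. Of the 18 sets 17 contributed animals of 1 sex alone, so sex and set cannot be told apart. In the hypothalamus 11 of 12 oligodendrocyte genes and 5 of 10 astrocyte genes were also called higher in females, and their part in the result was not tested.

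Between regions, C1qb was called higher in the PFC than in each other region, and C1qa and Cx3cr1 than in 2 of the 3. The pairs that missed were hypothalamus and PFC for C1qa (adjusted p = 0.102) and PFC and striatum for Cx3cr1 (adjusted p = 0.0516). Averaged over conditions in 1 fit of all libraries, C1qb was lower in the hypothalamus than in the PFC by 1.99 ± 0.40 on the log2 scale (adjusted p = 4.29e-06) and lower in the hippocampus than in the PFC by 0.99 ± 0.37 (adjusted p = 0.0221), and PFC exceeded striatum by 1.21 ± 0.38 (adjusted p = 0.00567). C1qa was lower in the hippocampus than in the PFC (log2 difference -1.03 ± 0.42, adjusted p = 0.0384) and higher in the PFC than in the striatum (1.28 ± 0.46, adjusted p = 0.0140). Cx3cr1 was lower than in the PFC in the hypothalamus (-1.11 ± 0.28, adjusted p = 0.000255) and in the hippocampus (-0.83 ± 0.27, adjusted p = 0.00731). Hypothalamic C1qb was also below that of the hippocampus (-1.01 ± 0.39, adjusted p = 0.0179). No member was called by edgeR between hippocampus and striatum, where 0 had an unadjusted p under 0.05, or between hypothalamus and striatum, where C1qb had (p = 0.0479). Such calls were common among all genes, with 61.4% called between hypothalamus and hippocampus, 63% between hypothalamus and PFC, 63.4% between hypothalamus and striatum, 41.9% between hippocampus and PFC, 41.8% between hippocampus and striatum and 45.4% between PFC and striatum. The members' 8 calls in 36 tests are below these shares. With the animal as a block, in limma-voom, 4 pairs were called that edgeR did not call, and in 2 of them the direction was the opposite. Csf1r between hypothalamus and PFC was -0.06 in edgeR and 1.03 with the block (adjusted p = 0.0149), and Ctss between hippocampus and PFC was -0.32 and 1.15 (adjusted p = 0.0451), so no direction is given for either. Csf1r was called higher in the hypothalamus than in the hippocampus (0.55 in edgeR, 0.91 with the block) and Cx3cr1 lower in the hypothalamus than in the striatum (-0.48 and -0.76). No C1qa call was made there. Of the other calls, those of C1qb between PFC and either hypothalamus or striatum remained, as did Cx3cr1 between hypothalamus and PFC, and 74.9%, 78.1%, 76.3%, 41.9%, 41.1% and 50.7% of genes were called in the same order of pairs.

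The members varied together from library to library. After each region and condition had been centred on its mean, log2(CPM + 1) of the 6 members counted in every region correlated in all 15 pairs, with Pearson's r from 0.491 (Csf1r and Cx3cr1) to 0.757 (C1qa and C1qb) over all libraries and Spearman's rho from 0.451 to 0.686. All 15 had a permutation p of 1e-05, the smallest that the permutations can give, and an adjusted p of 1.4e-05 over 21 pairs. Without the 2 farthest libraries r ran from 0.448 to 0.738. Libraries of the same animal are not independent, but within each region every library is of another animal, and there the median r of the pairs was 0.629 in the hypothalamus, 0.483 in hippocampus, 0.548 in PFC and 0.873 in striatum. Each member followed the sum of the other 6 at r = 0.776 for C1qb, 0.733 for Ctss, 0.716 for C1qa, 0.675 for Csf1r, 0.662 for Tmem119 and 0.568 for Cx3cr1, whereas P2ry12 in the hypothalamus had 0.253.

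Genes of oligodendrocytes and astrocytes varied with the members from library to library. Of 19629 other genes, the one most like the sum of the members was C1qc, the third C1q chain (r = 0.783 over all libraries). The next were Hepacam (0.775), a glial adhesion molecule, Adipor2 (0.773), Tspan2 (0.763), Gjc3 (0.758), Cldn11 (0.752), Anln (0.749), Hapln2 (0.747), Apoe (0.744) and Glul (0.742). Cldn11, Gjc3, Tspan2 and Hapln2 are genes of myelinating oligodendrocytes, and Glul and Apoe are strongly expressed by astrocytes. All 12 oligodendrocyte genes were among the 500 most alike and 10 among the first 100, with a median r of 0.669. The median was 0.589 for 5 genes of oligodendrocyte precursors, 0.569 for 10 astrocyte genes, 0.558 for 25 other microglial genes and 0.07 for 8 neuronal genes, beside 0.186 for all genes. These values are descriptions over libraries that share depth and scaling.

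As summed levels, the oligodendrocyte list followed the members at r = 0.675 (rho = 0.696) over all libraries, at 0.648 without the 2 farthest, and at 0.410, 0.643, 0.777 and 0.914 in the hypothalamus, hippocampus, PFC and striatum. The other microglial genes followed them at r = 0.830 (rho = 0.804), and the neuronal list ran the other way at r = -0.414 (rho = -0.382). The permutation p of these 3 was 1e-05, the smallest possible, and adjusted over 10 lists 1.43e-05. Markers of macrophages at the brain's borders (r = 0.267, rho = 0.167) and of blood leukocytes (r = 0.161, rho = 0.077) had lower values over all libraries. By region the border macrophage list had r of 0.494, 0.282, 0.129 and 0.144 in the same order, and the leukocyte list 0.105, 0.163, 0.337 and 0.016. The summed level of the 7 leukocyte genes was at most 6.97 CPM in any library.

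**Figure D3:**
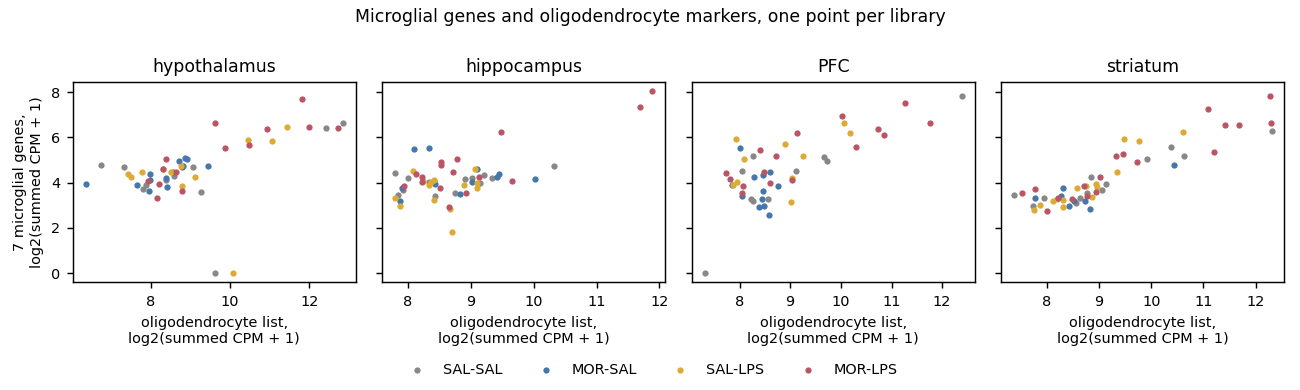
Summed level of the microglial genes (log2(CPM + 1), TMM-scaled, y axis) against the summed level of 12 oligodendrocyte genes (x axis) in each library, by region and coloured by condition. Libraries with more of one tend to have more of the other, with r of 0.410 in the hypothalamus and 0.914 in the striatum.

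These glial lists moved with some of the contrasts above and not with others. For LPS averaged over exposures, 0 of 12 oligodendrocyte genes were called in each region, with a median log2 fold change of 0.52 in the hypothalamus, and 5 of 10 astrocyte genes were called higher in the hypothalamus, among them Gfap (3.62 ± 0.53), a gene of reactive astrocytes, beside 3.01% of all genes called higher there. In morphine-exposed hypothalami, 6 of 12 oligodendrocyte, 8 of 10 astrocyte and 3 of 5 precursor genes were called higher after LPS, with medians of 1.75, 2.30 and 2.35, beside 4.1% of all genes. In the striatum of morphine-exposed animals, where C1qa was called, 6 of 9 astrocyte genes (median 1.66) and 0 of 12 oligodendrocyte genes (median 1.04) were called higher after LPS, beside 0.845% of all genes. In hippocampal MOR-LPS against SAL-LPS, where Csf1r was called, 2 of 12 oligodendrocyte genes (median 1.39) and 0 of 9 astrocyte genes (median 0.93) were called higher, beside 1.72% of all genes. For the interaction that called Csf1r, 7 of 12 oligodendrocyte genes and 5 of 10 astrocyte genes were called upwards, with medians of 2.49 and 2.55, beside 2.2% of all genes. In hypothalamic MOR-SAL against SAL-SAL, where Csf1r came near the threshold, 2 of 12 oligodendrocyte genes (Mal and Mobp, list median -1.60) and 1 of 10 astrocyte genes (Slc1a2, list median -1.14) were called lower, beside 1.44% of all genes called. In the PFC none of either list was called in that contrast, with medians of -1.64 and -1.03. No neuronal gene was called in these contrasts. The summed oligodendrocyte level of the hypothalamus ranged from 105 to 7382 CPM (median 385) in SAL-SAL, from 80.7 to 696 (median 358) in MOR-SAL, from 171 to 2749 (median 437) in SAL-LPS and from 243 to 6762 (median 614) in MOR-LPS. The part of these lists in the members' results was not tested.

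Of the genes that act with the members (ligands, complement components, cathepsins and their inhibitor, and transcription factors), 3 of 23 were called higher in the hypothalamus for LPS averaged over exposures, 2 of 22 in hippocampus, 1 of 22 in PFC and 1 of 21 in striatum, and none lower. Of all genes 4.43%, 3.82%, 1.77% and 1.65% were called in these regions, in either direction. C4b, complement component 4, was called in all 4 regions, with log2 fold changes of 3.71 ± 0.54, 2.21 ± 0.57, 2.81 ± 0.63 and 3.68 ± 0.45. The hypothalamus added Spi1, which encodes PU.1 (2.43 ± 0.95), and Ctsz, a cathepsin (1.25 ± 0.35), and the hippocampus C3 (3.73 ± 1.03). C1qc had 1.39 ± 0.61 (adjusted p = 0.195) in the hypothalamus and 2.22 ± 0.66 (adjusted p = 0.0606) in the PFC. The ligands of the receptors did not pass the test in any region, with log2 fold changes of 0.17 to 0.82 for Csf1, -0.25 to 0.077 for Il34 and -0.31 to 0.042 for Cx3cl1, and Cst3, an inhibitor of cathepsins, ran from -0.22 to 0.63. In contrast to the members, the neuronal ligand Cx3cl1 was abundant, at a mean of 312 CPM in the hypothalamus and 437 CPM in the PFC. In MOR-LPS against MOR-SAL, 6 of 23 partners were called higher in the hypothalamus and 2 of 21 in the striatum, beside 4.1% and 0.845% of all genes. C1qc (2.60 ± 0.84), Sall1 (2.20 ± 0.65), a regulator of microglial identity, Spi1 (4.47 ± 1.43), C4b (4.86 ± 0.78) and the complement proteases C1ra (adjusted p = 0.00710) and C1s1 (adjusted p = 0.00909) were called in the hypothalamus, and C4b (5.10 ± 0.74) and Csf1 (1.77 ± 0.46) in the striatum. C1ra and C1s1 had mean levels of 0.656 and 0.501 CPM in MOR-LPS and no read in MOR-SAL, so no fold is given.

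Of 25 other microglial genes, a list that also holds C1qc, LPS averaged over exposures called 4 higher in the hypothalamus, Tyrobp (3.05 ± 0.98), P2ry6 (2.55 ± 0.87), Itgam (2.49 ± 0.72) and Sparc (1.46 ± 0.35), and 1 lower, Siglech (-2.40 ± 0.78), a lectin of resting microglia, where 4.43% of all genes were called and 3.01% called higher. The median log2 fold change of the list was 0.66, beside 0.042 for all genes. Itgam, the CD11b chain, was also called in the striatum (2.26 ± 0.60). Among 15 genes of the acute myeloid response to LPS, 9 were called higher in the hypothalamus, among them Lcn2 (6.00 ± 0.84) and Tlr2 (3.27 ± 1.02), 3 of 13 in the striatum and 1 each of 12 in the hippocampus and of 11 in the PFC. Of all genes 3.01% were called higher in the hypothalamus, and 1.65%, 3.82% and 1.77% were called in either direction in striatum, hippocampus and PFC. Endothelial and astrocytic cells express several of these as well.

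**Figure D4:**
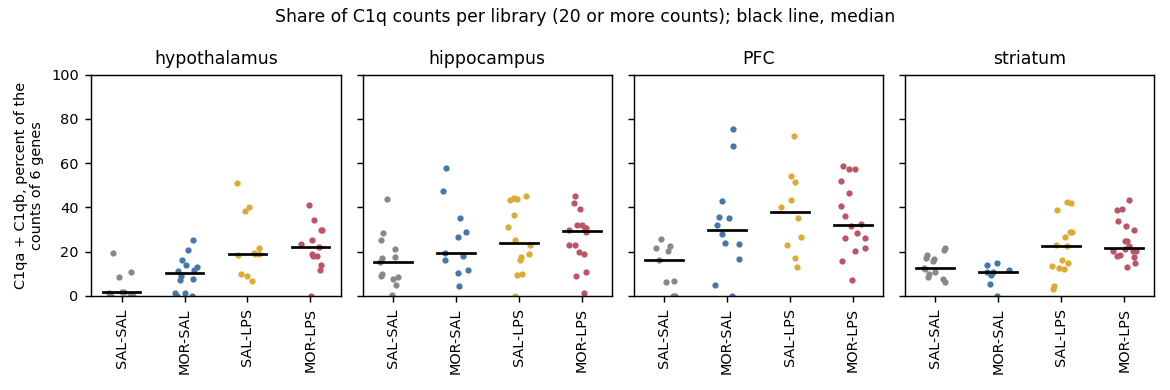
Counts of C1qa and C1qb as a percent of the counts of the 6 members other than P2ry12, in each library with at least 20 such counts, by region and condition; the black line is the median. Medians after LPS lie between 19.1% and 37.8%, those of SAL-SAL between 1.59% and 16.1%, and those of MOR-SAL between 10.1% and 29.9%.

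Among the members, the share of counts held by C1q had higher medians after LPS than in SAL-SAL in each region. The median share of C1qa and C1qb among the counts of the 6 members was 1.59% in SAL-SAL, 10.1% in MOR-SAL, 19.1% in SAL-LPS and 21.9% in MOR-LPS of the hypothalamus. It was 12.6%, 10.8%, 22.4% and 21.8% in the striatum, 15.1%, 19.2%, 24.0% and 29.3% in the hippocampus, and 16.1%, 29.9%, 37.8% and 32.1% in the PFC. In the striatum every MOR-SAL library lay at or below 14.7% and every MOR-LPS library at or above 12.8%. Elsewhere these 2 groups overlapped widely. They ran from 0% to 25% and from 0% to 41.0% in the hypothalamus, and from 4.21% to 57.8% and 1.33% to 45% in the hippocampus. In the PFC they ran from 0% to 75.2% and from 7.14% to 58.5%. A share of this kind compares the members with each other within a library, and it was given no test.

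High levels tended to recur in the same animal, where libraries with the same label number were taken as 1 animal. For each of 6 members, levels in 2 regions of the same animal were compared after centring on condition, with sex and set not removed. This gave 36 relations over 35 to 42 animals. Pearson's r was positive in 34, with a median of 0.365 and a range of -0.02 to 0.68. Of the 36 relations, 9 had an adjusted permutation p under 0.05, and 10 by Spearman's rho. How often other genes pass was not examined, so the count is not particular to the members. No relation between the hypothalamus and either hippocampus or PFC passed. Apart from C1qb between hippocampus and PFC, every relation that passed involved the striatum. The highest were those of Tmem119 between hypothalamus and striatum (r = 0.680, rho = 0.646, permutation p = 0.00023, adjusted p = 0.00414, r = 0.591 without the 2 farthest animals) and between PFC and striatum (r = 0.663, rho = 0.692). For C1qb, 3 of 6 relations passed, between PFC and striatum (0.569), hippocampus and PFC (0.536) and hypothalamus and striatum (0.515). Csf1r passed none by Pearson's r. Recurrence in an animal cannot be told apart here from a difference between sexes or sets that its regions share.

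**Figure D5:**
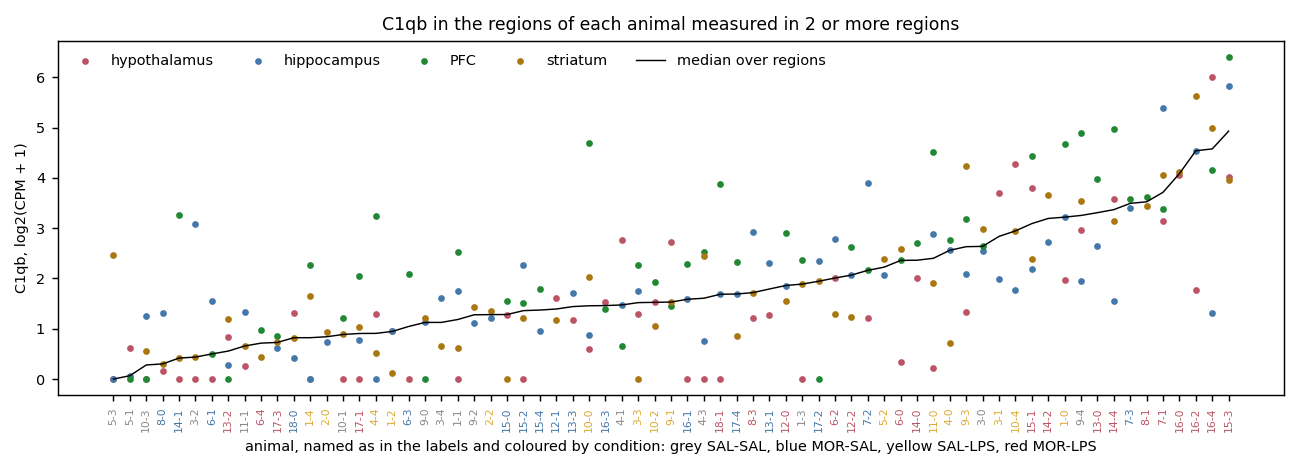
C1qb level (log2(TMM-scaled CPM + 1)) in each region of every animal measured in 2 or more regions, ordered by the median over its regions (black line); animals are named as in the labels and coloured by condition. The 5 animals at the right are all MOR-LPS, and animal 15-3 is high in all 4 regions.

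Libraries were ranked by the summed level of the 6 members other than P2ry12. MOR-LPS female 15-3 was among the 5 highest summed levels in each of its 4 regions, with 260 CPM in the hippocampus, 182 in the PFC, 98.4 in the striatum and 82.0 in the hypothalamus. MOR-LPS female 16-4 was among them in 3 of its 4 regions (204 CPM in the hypothalamus, 150 in the striatum and 121 in the PFC), though it had 15.1 CPM in the hippocampus. The females 16-0, 16-2 and 7-1 of MOR-LPS and 9-4 of SAL-SAL appeared in 2 regions each, so that 15 of the 20 places were held by 6 animals. With P2ry12 added to the sum, animal 10-4 (86.3 CPM) took the place of 9-4 (85.3 CPM) in the hypothalamus. Sets 15 and 16 were part of MOR-LPS in all 4 regions, and calls lost without them are named with each result above.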

How the data were processed

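Nuclei were dissociated from tissue punches, sorted for NeuN, and made into modified Smart-seq3 libraries by tagmentation. The authors trimmed reads with Trim Galore 0.6.7, aligned them to mm10 with STAR 2.7.10a and counted genes of GENCODE vM25 with STAR and HTSeq 0.12.4; their own tests used DESeq2 1.40.2. They deposited raw counts of 46403 genes and CPM of 46366 genes for each region. The deposited CPM equalled counts scaled to the library total (largest difference 2.9e-11), and whether counting used strand is not given in the sources used here.

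Counts were tested with edgeR 4.0.16 (R 4.3.3) per region, with 4 conditions and sex as terms, TMM scaling, genes with a total count above 10, and Benjamini-Hochberg adjustment over all genes at 0.05. Region pairs came from 1 fit of all libraries over genes counted in all tables. Levels are TMM-scaled CPM, and correlations use log2(deposited CPM + 1) centred on region and condition with 100000 permutations within groups. The centring did not include sex or set. Alternatives were DESeq2 1.42.0, other filters and scalings, limma 3.58.1 with pseudocounts of 1 and 0.1, no sex term, each sex alone, no low-depth libraries, each numbered set left out, and set or animal as a block, and 1 PFC library left out, chosen after seeing the data. The first part of a label number defined the set. Libraries with the same number in different regions were read as the same animal, which the labels do not state, and they shared condition and sex. Animals were taken as independent in the main fits. The average correlation within sets ranged from -0.049 to 0.029 by region, and that within animals over regions was 0.0146.

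The members and lists were chosen with earlier results of these data known, and the comparison of females with males was added after seeing the data. Named were every member in every region and condition, with its LPS effect averaged over exposures in each region and, in other contrasts, where it was called or had an unadjusted p under 0.05. Also named were the ligands, C1qc, Cst3 and called genes among the partners, and the 10 genes most like the members' sum. Genes of the other lists are examples chosen after their values were seen. In counts simulated for the hypothalamic comparison of LPS with saline (27809 genes, 200 changed by 2 on the log2 scale), edgeR recovered 88.5% of the changed genes but also called 247 unchanged ones, of which 11 had a mean of at least 1 CPM. On the same simulated counts, fewer unchanged genes were called by DESeq2 (18), edgeR after filterByExpr (6) and edgeR with the set as a block (9). With sets in limma-voom 4 were called, and limma with pseudocounts of 1 and 0.1 called 0 and 1. These alternatives recovered 71% to 89.5% of the changed genes, and no set effect was simulated. So calls of genes at low level are less certain than their adjusted p says, and edgeR's shares of all genes can hold such calls. Positions are from GENCODE M21 for mm10, and promoters from RefSeq.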

Additional observations from a re-analysis of the deposited data

Results flagged for a closer look

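The response of hypothalamic Csf1r to LPS differed between exposures in the test of that difference, with an interaction of 2.98 on the log2 scale (2.9835, adjusted p = 0.00706). The change after LPS was 1.82 in morphine-exposed animals, which was called, and -1.16 in saline-exposed animals, which was not (adjusted p = 0.239). With the numbered set as a block the interaction was not called (adjusted p = 0.101).

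Of 21 levels examined in 3 groups of 4 to 10 libraries, 12 had a library that stood apart by Dixon's criterion. Its rate of about 1 in 20 holds for independent, normally distributed values, which these skewed levels are not. Several of the 12 come from 1 library and its sum, so no rate of chance is set against the count. In the PFC of SAL-SAL, animal 9-4 had 96.6 CPM of Csf1r (next 7.77), 57.3 of Cx3cr1 (57.25, next 12.9), 28.9 of C1qb (28.85, next 5.23), 18.1 of Tmem119 (18.08, next 7.50) and 17.2 of Ctss (17.16, next 4.196), with a sum of 225 CPM over 6 members (225.4, next 35.2). In the PFC of SAL-LPS, animal 10-0 had 6.18 CPM of Tmem119 (6.184, next 0.975) and animal 1-4 had 18.1 CPM of Ctss (18.12, next 4.64). In the striatum of MOR-SAL, animal 17-2 had 14.2 CPM of Csf1r (14.24, next 4.81), 2.85 of C1qb (2.849, next 1.32) and a sum of 26.4 CPM (26.35, next 12.6), and animal 14-1 had 2.46 CPM of Tmem119 (2.459, next 1.07).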

How the results depend on the processing

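Counts of called members were within 1.5 times the main count in 313 of 371 comparisons with an alternative setting, and 21 were larger and 37 smaller. The cause of each change was not tested.

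For LPS averaged over exposures, the hypothalamic count of 3 became 1 with the numbered set as a block, 1 with a correlation within sets, 1 in males, 0 in females and 0 under limma with either pseudocount. The PFC count of 0 became 1 with a correlation within sets and 1 without SAL-SAL animal 9-4, a choice made after seeing the data. The striatal count of 1 became 3 with DESeq2, 2 without a sex term, and 0 with the set as a block, in males and under limma with a pseudocount of 1, and ranged from 0 to 2 with each set left out. For MOR-LPS against MOR-SAL, the hypothalamic count of 4 became 2 with the set as a block, 1 with a correlation within sets, 1 in males, 2 under limma with a pseudocount of 1 and 0 with 0.1, and ranged from 1 to 4 with each set left out. The striatal count of 1 became 3 with DESeq2, without a sex term and under limma with a pseudocount of 0.1, 2 with filterByExpr, with library size only and under limma with a pseudocount of 1, and 0 with the set as a block and in males, and ranged from 0 to 3 with each set left out.

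For MOR-SAL against SAL-SAL, the hypothalamic count of 0 became 1 with DESeq2, without a sex term and without low-depth libraries. For MOR-LPS against SAL-LPS, the hippocampal count of 1 became 2 in females and without a sex term, and 0 in males, with filterByExpr, with a correlation within sets and under limma with either pseudocount, and ranged from 0 to 1 with each set left out. For the interaction, the hypothalamic count of 1 became 2 in females and 0 in males, with the set as a block, with a correlation within sets and under limma with either pseudocount, the hippocampal count of 0 became 1 without low-depth libraries, and the striatal count of 0 became 1 with DESeq2. For females against males, the hypothalamic count of 3 became 1 with a correlation within sets and 0 under limma with either pseudocount, and the striatal count of 1 became 0 with a correlation within sets, with filterByExpr, with library size only, without a filter and under limma with either pseudocount. Between regions, with the animal as a block, the counts became 1 from 0 for hypothalamus and striatum, 1 from 3 for hippocampus and PFC and 1 from 2 for PFC and striatum. With filterByExpr they became 2 from 1 for hypothalamus and hippocampus and 1 from 0 for hypothalamus and striatum. Neither block changed the call of a member not named here or in the results.

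Directions turned for members without a call in the main test. Between regions, with the animal as a block, Csf1r in hypothalamus against PFC and Ctss in hippocampus against PFC turned from -0.06 and -0.32 to called values of 1.03 and 1.15. The log2 fold change of Tmem119, hypothalamus, LPS vs saline averaged over exposures (-0.11) became 0.076 with DESeq2, 0.37 with a correlation within sets, 1.01 in females, 0.091 and 0.052 under limma with pseudocounts of 0.1 and 1, 0.34 without a sex term, and from -0.80 to 0.31 with each set left out. That of Csf1r in the hippocampus (0.18) became -0.47 with a correlation within sets, -0.48 and -0.13 under limma with 0.1 and 1, -0.32 in males and from -0.30 (without set 15) to 0.41 with each set left out, and that of Cx3cr1 there became -0.25 in males. Tmem119 in the hippocampus (-0.11) became 0.38 with the set as a block and from -0.61 to 0.21 with each set left out. Tmem119 in the PFC (-0.24) became 0.13 without SAL-SAL animal 9-4. In the striatum Csf1r became -0.35 in males, and Tmem119 (0.28) became -0.64 with a correlation within sets, -0.27 under limma with 0.1, -0.32 with the set as a block, -0.59 in males and from -0.066 (without set 5) to 0.63 with each set left out.

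At the median depth a member with no read is limited to 0.276 to 0.541 CPM, and low-depth libraries limit it less.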

Other observations

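Hippocampal Trem2, a lipid-sensing receptor of microglia, was the 1 other microglial gene called lower there after LPS averaged over exposures, where 3.82% of all genes were called (-2.47 ± 0.79, adjusted p = 0.0394). It was also called lower in SAL-LPS against SAL-SAL, was not called in MOR-LPS against MOR-SAL (-1.19 ± 0.97), and was called higher in MOR-LPS against SAL-LPS. In the hypothalamus, 3 of 7 blood leukocyte genes, Ly6c2, S100a8 and S100a9, were called higher in the same comparison, beside 3.01% of all genes. Their mean levels after LPS were 0.142, 0.140 and 0.131 CPM, a range where the simulation called unchanged genes, and the summed level of the list had medians of at most 1.03 CPM in each group. The summed level of border macrophage genes had medians of 2.45 CPM in the hypothalamus, 4.41 in hippocampus, 19.7 in PFC and 21.7 in striatum. Endothelial genes followed the members at r = 0.688 in the hypothalamus and -0.576 in the striatum (r = 0.0967 over all libraries, rho = -0.0855). The precursor, astrocyte, acute response and partner lists followed them at r = 0.680, 0.586, 0.709 and 0.567 over all libraries. These are descriptions, chosen after the values were seen.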
